A study of Mus musculus with 12 samples.

Results

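The genes described here are 10 transcription factor genes known for effector and regulatory fates of lymphocytes: *Prdm1*, *Maf*, *Irf4*, *Bhlhe40*, *Nfil3*, *Ahr*, *Ikzf2*, *Ikzf3*, *Runx1* and *Runx3*. They were chosen by name for these roles, with earlier results of these data known, and make up 10 of the 24346 genes in each file. Their RNA was measured in group 2 innate lymphoid cells (ILC2s), lymphocytes of tissues that make type 2 cytokines, in 12 libraries of cells sorted from the lung as CD45+ Lin- Thy1.2+ ST2+. The study asked how semaphorin 6D, encoded by *Sema6d*, shapes ILC2s activated by the alarmin IL-33. The 4 groups, with 3 libraries each, were WT mice given PBS, *Sema6d*-deficient mice (6DKO) given PBS, WT mice given IL-33 and 6DKO mice given IL-33. All mice were C57BL/6 by the labels and C57BL/6J by the methods of the study, and either agent was given through the nose for 3 days. The knockout was of the whole body, so cells around the ILC2s lacked the gene as well. The labels give an IL-33 dose of 50 ng and the methods of the study a higher one. The labels give no age, whereas the methods give an age range in weeks for the mice of the study. The methods name the TruSeq Stranded kit and the labels the SMART-Seq HT and Nextera kits for the same libraries, so whether reads kept their strand is uncertain. Nothing in the labels says that replicates came from separate mice, so p-values measure the spread between these libraries, which may be technical.

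As background, ILC2s develop under GATA3 and RORα and acquire further programs after activation, among them secretion of IL-10, by factors that they share with effector and regulatory T cells. BLIMP-1 (*Prdm1*), c-MAF (*Maf*) and IRF4 act in IL-10 expression and terminal differentiation, whereas BHLHE40 is known as a repressor of *Il10* in T cells. NFIL3 is needed for innate lymphoid progenitors, AHR senses environmental ligands, and the Ikaros (*Ikzf2*, *Ikzf3*) and RUNX families set lineage programs.

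*Sema6d* was read in every library and does not by itself verify the genotype labels, because a value for a whole gene does not show which exons were deleted. It was 27.5, 46.1 and 37.5 FPKM (fragments scaled to exon length and library size) in WT and 29.0, 22.9 and 19.8 in 6DKO libraries under PBS. Under IL-33 it was 19.7, 35.5 and 28.7 FPKM in WT and 15.4, 13.6 and 13.8 in 6DKO libraries, without overlap. The ILC2 label was borne out by its markers: *Gata3* was between 295 and 690 FPKM, *Il1rl1*, which encodes the IL-33 receptor chain ST2, between 117 and 269, and *Il7r* between 280 and 384. All 14 ILC2 markers were above 1 FPKM in at least 1 library, and their sum was between 6668 and 10088.5 FPKM. Markers of other cells were partly present, although the Lin antibodies named in the methods include F4/80 and NK1.1, which mark macrophages and NK cells, and CD11c. Of the B cell list, *Pax5* and *Ms4a1* were listed at 0 in all 12 libraries, but *Cd79b* reached 26.8 FPKM. The list summed to between 0 and 5.12 FPKM in WT PBS and between 12.01 and 26.9 in WT IL-33 libraries. Its 6DKO sums overlapped, at between 0 and 8.90 FPKM under PBS and between 3.55 and 18.4 under IL-33. Of the neutrophil list, *S100a8* was listed at 0 throughout and *Cxcr2* was between 5.45 and 11.2 FPKM. The ILC3 list summed to between 14.3 and 75.8 FPKM in WT PBS and between 102 and 135 in WT IL-33 libraries. In 6DKO libraries it summed to between 51.4 and 168 FPKM under PBS and between 99.0 and 188 under IL-33, with overlap. Of the eosinophil, basophil and mast cell list (8 genes), 6 were below 1 FPKM in every library, with *Epx*, *Prg2* and *Mcpt8* listed at 0 throughout. *Fcer1a* was 2.99 FPKM in WT IL-33 replicate 2 and 0 elsewhere. Only *Cpa3*, a mast cell gene, was read throughout, between 42.9 and 89.3 FPKM in PBS and between 17.8 and 40.0 in IL-33 libraries, without overlap. The part of such cells in the IL-33 comparisons was not tested. *Foxp3*, which defines regulatory T cells, reached at most 0.0679 FPKM. The T cell list summed to between 348 and 675 FPKM, led by *Cd3g* and with *Cd4* listed at 0, and the NK cell and ILC1 list to 834 FPKM in 6DKO PBS replicate 2 and to at most 43.8 in any other library.

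The PBS libraries were the sparser ones. Of 3617 genes with a mean of 5 to 20 FPKM, the range that holds *Prdm1*, *Maf*, *Ahr*, *Ikzf2* and *Runx1*, between 7.82% and 24.2% were below 1 FPKM in a PBS library and between 1.27% and 2.32% in an IL-33 library. Read totals are unknown, but values of weakly expressed genes move in steps of whole reads, and these gave relative depths of 0.739 to 0.998 in the PBS and 0.968 to 1.39 in the IL-33 libraries. No member was listed at 0 in any library, and all 10 passed the filter, which asked for a mean of 0.5 FPKM or more.

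The members differed widely in level. *Bhlhe40* was first in every group, with a mean of 1358 FPKM in WT PBS, 1330 in 6DKO PBS, 1440.5 in WT IL-33 and 1582 in 6DKO IL-33 libraries, above 99.1% to 99.3% of the genes tested. *Nfil3* and then *Ikzf3* came next in each group, and their libraries overlapped only in the 6DKO PBS group. The other members lay between 4 and 45 FPKM on average, and most neighbours in that order did not differ beyond their spread. *Irf4* moved most in this order: with a mean of 4.35 FPKM it was last of 10 in 6DKO PBS libraries, and with 44.2 in WT and 44.7 in 6DKO libraries it was number 4 under IL-33. *Ikzf2* was last under IL-33 in both genotypes, with means of 4.76 and 4.70 FPKM, and its libraries overlapped with those of the next gene in neither genotype.

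**Figure D1:**
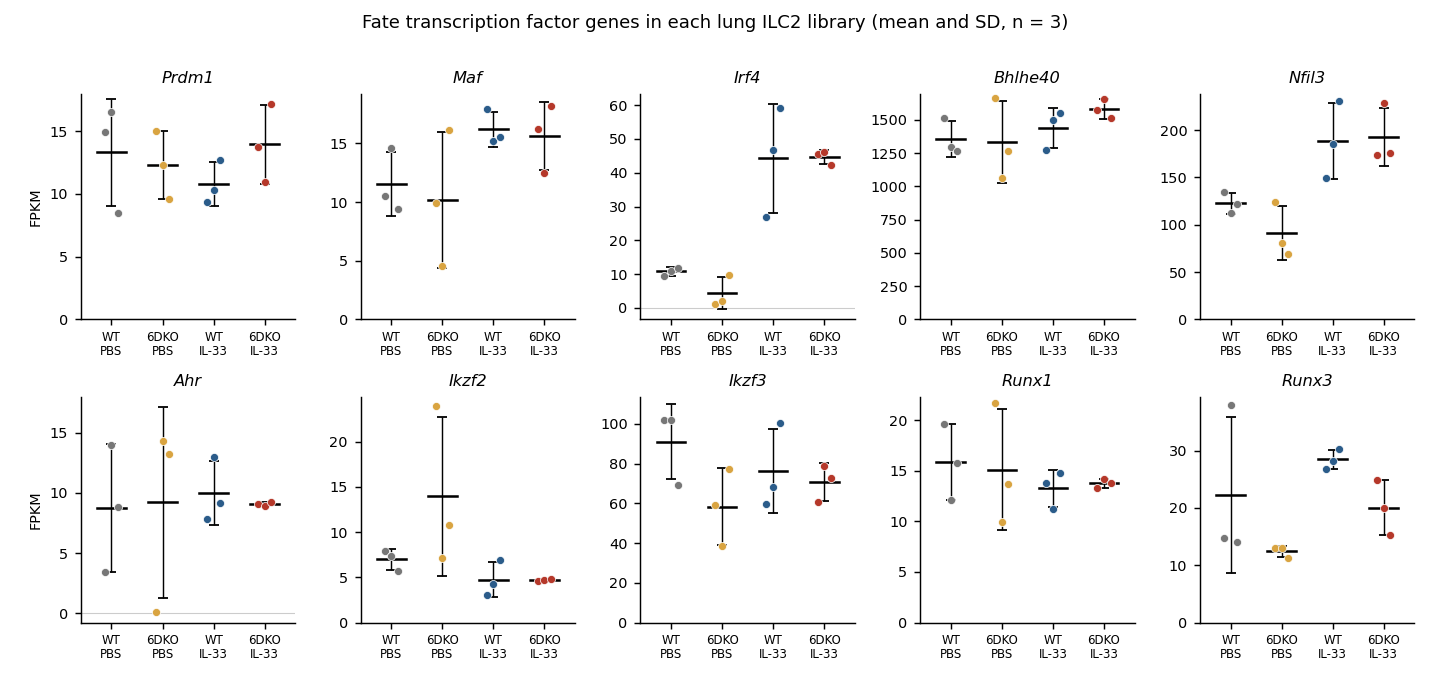
FPKM (vertical axes, linear) of the 10 transcription factor genes in each of the 12 libraries, by genotype and treatment; points are libraries, thick lines means and whiskers the SD (n = 3). The IL-33 libraries of *Irf4* and *Nfil3* lie above all PBS libraries, whereas *Bhlhe40* lies above 1060 FPKM in every group.

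IL-33 was compared with PBS in each genotype and averaged over both, with limma on log2(FPKM + 1) and Benjamini-Hochberg adjustment over 11395 genes. In data simulated with the SD of each gene in each group taken as its true spread, this fit called more unchanged genes than the threshold allows. An SD of 3 libraries is itself uncertain, so the simulated spread may be more unequal between groups than the real one. Only IL-33 against PBS in WT was simulated, not the averaged or genotype comparisons. For IL-33 against PBS in WT, 13 of 200 genes with a true log2 change of 1 were called, beside 21 unchanged genes. With changes of 2 and 4, 83 and 168 of 200 were called, beside 48 and 54 unchanged genes. Single calls and the shares of all genes called are therefore uncertain, and a log2 change of 1 was mostly missed. Averaged over the genotypes, 2 of the 10 members rose at an adjusted p under 0.05, *Irf4* and *Nfil3*, and none fell, against 8.82% of all genes tested called in either direction. In 6DKO mice 2 members were called, the same genes, against 2.84% of all genes. In WT mice limma called 0 members, against 4.27% of all genes, and 2 members had an unadjusted p under 0.05, as did 2011 of the 11395 genes. Groups of 3 libraries did not overlap for 3 members in WT, all higher with IL-33 (*Maf*, *Irf4* and *Nfil3*), where 25.1% of all genes did not overlap in either direction. In 6DKO libraries 4 members did not overlap, *Irf4*, *Nfil3* and *Runx3* higher and *Ikzf2* lower, against 22.7% of all genes. The median log2 fold change of the members was 0.34 averaged over the genotypes, beside 0.16 for all genes tested. Among all genes, 655 were called higher and 350 lower, and after quantile normalization, which moved the median of all genes to -0.03, 521 and 506. *Irf4* and *Nfil3* kept averaged log2 fold changes of 2.53 and 0.85 there.

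Between the genotypes, no member was called. Under IL-33 limma called 0 members at an adjusted p under 0.05, against 0.00878% of all genes (1 gene), and 0 members had an unadjusted p under 0.05, beside 209 of all genes. Under PBS it called 0 members, against 0.579% of all genes, and *Irf4* and *Ikzf3* (2 members) had an unadjusted p under 0.05, as did 1475 of all genes. For the interaction of genotype and treatment it called 0 members, against 0.0176% of all genes, and 0 members had an unadjusted p under 0.05, beside 635 of all genes. *Runx3* was the 1 member without overlap between the genotypes under IL-33, where 14.2% of all genes did not overlap, and again the 1 member under PBS, where 8.63% did not. The fit shares 1 estimate of spread per gene over the 4 groups. The median SD of log2(FPKM + 1) was 0.66 in WT PBS and 0.70 in 6DKO PBS, but 0.29 in WT IL-33 and 0.28 in 6DKO IL-33 libraries. Standard errors thus tend to be too large under IL-33 and too small under PBS. With only the groups compared, 1050 genes had an unadjusted p under 0.05 under IL-33 and 520 under PBS, and no member was called. The lack of calls under IL-33 thus does not show equal levels. The treatment and genotype comparisons share libraries, so they do not bear on each other independently.

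**Figure D2:**
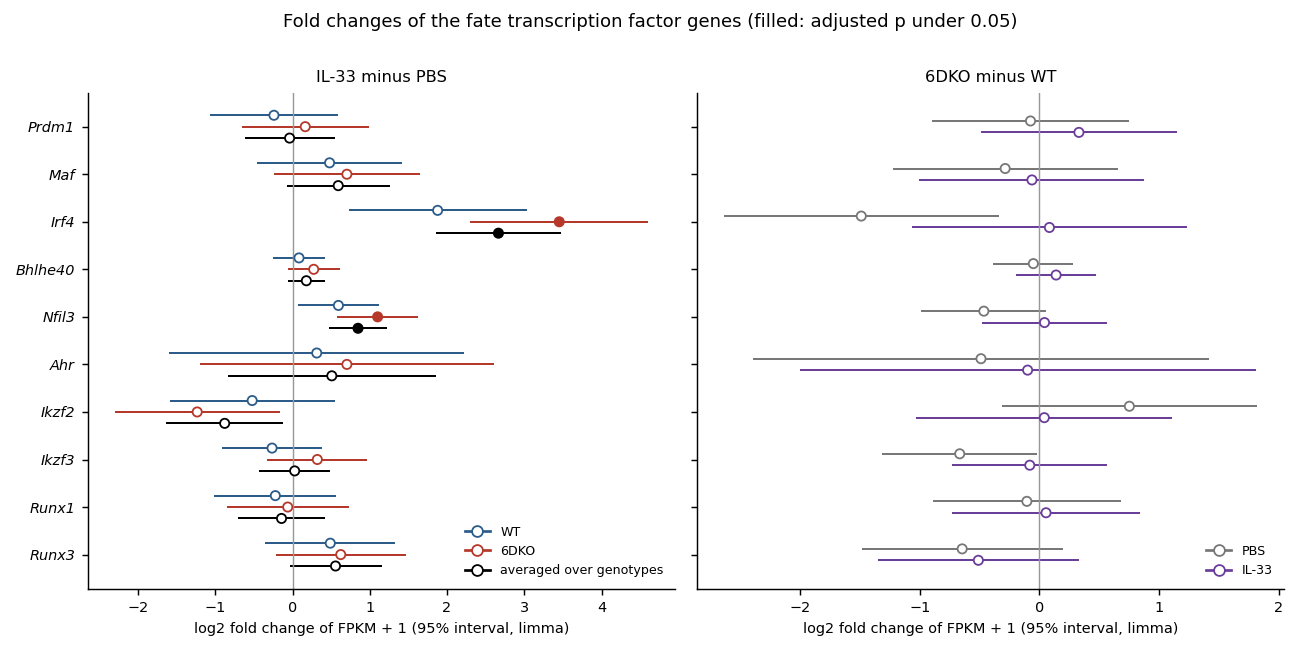
Log2 fold changes of FPKM + 1 (horizontal axes) of the 10 genes with 95% intervals from limma, for IL-33 minus PBS (left) and 6DKO minus WT (right); filled points have an adjusted p under 0.05. The filled points are *Irf4* and *Nfil3* in 6DKO and averaged over the genotypes, and on the right none is filled.

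*Irf4* encodes an interferon regulatory factor that, with BATF-containing AP-1 dimers, drives effector differentiation of T cells and plasma cells. Its FPKM was 9.46, 10.9 and 11.9 in WT PBS and 27.0, 46.7 and 59.0 in WT IL-33 libraries. In 6DKO libraries it was 1.20, 2.07 and 9.79 under PBS and 45.5, 46.2 and 42.4 under IL-33. All 6 IL-33 libraries were above all 6 PBS libraries, and the mean of the IL-33 libraries was 5.88 times that of the PBS libraries. The log2 fold change with IL-33 was 1.88 in WT (standard error, SE, 0.53; adjusted p = 0.0731, limma) and 3.45 in 6DKO (SE 0.53, adjusted p = 0.00545, limma). Averaged over the genotypes it was 2.66 (SE 0.37, adjusted p = 0.000945, limma), and a two-sided exact permutation test within genotypes gave p = 0.005, the smallest that 400 assignments allow. The averaged call held in each alternative setting run, with log2 fold changes of 2.43 to 3.01. The call in WT was gained without 6DKO PBS replicate 1 (adjusted p = 0.0348, limma) or replicate 3 (adjusted p = 0.0118, limma) and in a fit of only the groups compared (adjusted p = 0.0417, limma), where the 6DKO call was lost (adjusted p = 0.0543, limma). With single libraries left out, the log2 fold change in 6DKO was between 2.99 and 4.14. Over all alternatives the adjusted p was 0.0118 to 0.268 in WT and 0.000671 to 0.0543 in 6DKO (limma).

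Between the genotypes, no difference in *Irf4* passed the threshold. Under PBS, 6DKO libraries 1 and 2 lay below all WT libraries and library 3 lay inside their range, for a log2 fold change of -1.49 (SE 0.53, adjusted p = 0.281, limma). Without 6DKO PBS replicate 3 it was -2.18 (adjusted p = 0.0239, limma; 0.0239 to 0.951 over the alternatives). Under IL-33 the difference was 0.08 (95% interval -1.07 to 1.24). The larger fold change in 6DKO was not shown to differ from that in WT: the interaction was 1.57 (SE 0.75, adjusted p = 0.893, limma), and between 1.11 and 2.26 with single libraries left out. Replicate 1 of 6DKO PBS was the sparsest of the 12 libraries, with 24.2% of the 3617 genes of middle level below 1 FPKM, whereas replicate 2, at 9.10%, was among the fuller PBS libraries. Replicate 2 of 6DKO PBS also had the highest NK cell and ILC1 sum, 834 FPKM. Its macrophage sum was 189 FPKM, beside at most 17.1 in the other PBS libraries. The part of sparsity and of other cells in the difference was not tested.

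IRF4 is also expressed by dendritic cells and plasma cells, whose markers were therefore set beside it. The dendritic cell list (8 genes, 3 of them below 1 FPKM in every library, *Clec9a* listed at 0 in all) summed to 2.69, 38.2 and 101 FPKM in WT PBS and 189, 59.3 and 127 in 6DKO PBS libraries. Under IL-33 it summed to 239, 245 and 473 FPKM in WT and 794, 687 and 765 in 6DKO libraries. Its most abundant gene was *H2-Ab1*, an MHC class II gene that ILC2s express too, and *Itgax*, which encodes CD11c, was at most 2.83 FPKM. *Zbtb46*, a factor of conventional dendritic cells, was between 0 and 10.3 FPKM in PBS and between 2.49 and 10.7 in IL-33 libraries, and *Xcr1* between 0.194 and 10.4 and between 4.63 and 11.4. The part of such cells in the *Irf4* values was not tested, and bulk RNA cannot tell a change in the share of cells from a change in RNA per cell. Of the plasma cell list (4 genes in the files), *Mzb1* and *Tnfrsf17* were listed at 0 in all libraries, and the sum was at most 7.41 FPKM.

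Of the other IRF family and IRF4 partner genes, 13 of 15 passed the filter, with a median log2 fold change of 0.25 averaged over the genotypes. Of these, 5 rose with IL-33 and 0 fell, against 8.82% of all genes tested called in either direction. *Irf9*, a subunit of the interferon-activated ISGF3 complex, was 0, 0 and 0.387 FPKM in WT PBS, 0, 16.0 and 0 in 6DKO PBS, 24.1, 22.9 and 21.1 in WT IL-33 and 20.003, 17.2 and 28.6 in 6DKO IL-33 libraries. Its averaged log2 fold change was 3.77 (SE 0.63, adjusted p = 0.00297, limma). *Batf*, the AP-1 partner of IRF4, was 1.19, 35.8 and 33.1 FPKM in WT PBS and 73.0, 71.3 and 37.6 in 6DKO PBS libraries. Under IL-33 it was 165, 259 and 213 FPKM in WT and 264, 233 and 161 in 6DKO libraries, an averaged log2 fold change of 2.89 (SE 0.59, adjusted p = 0.00983, limma). The 6DKO PBS library with 16.0 FPKM of *Irf9*, replicate 2, is the one that stood apart by its NK cell and ILC1 sum. All IL-33 libraries of both genes lay above all PBS libraries, and both calls held in the 20 alternatives run, with log2 fold changes of 3.43 to 6.19 for *Irf9*, the highest with a pseudocount of 0.1, and of 2.22 to 3.24 for *Batf*. *Irf7* (2.93, over the alternatives 2.18 to 3.51) and *Batf3* (1.504, 1.04 to 3.497) rose as well, but their calls were lost in 13 of 20 and 4 of 19 alternatives. *Batf3* was listed at 0 in all PBS libraries and in 2 of 6 IL-33 libraries, and was at most 7.34 FPKM.

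*Nfil3*, a basic leucine zipper repressor required early in innate lymphoid development, was 134, 112 and 122 FPKM in WT PBS and 150, 185 and 230.2 in WT IL-33 libraries. In 6DKO libraries it was 124, 80.7 and 69.4 FPKM under PBS and 174, 228 and 175 under IL-33. As for *Irf4*, the 6 IL-33 libraries lay above the 6 PBS libraries, here with a ratio of means of 1.78. The log2 fold change was 0.59 in WT (SE 0.24, adjusted p = 0.213, limma) and 1.101 in 6DKO (SE 0.24, adjusted p = 0.0317, limma). Averaged over the genotypes it was 0.85 (SE 0.17, adjusted p = 0.00877, limma), with an exact permutation p of 0.005. The averaged adjusted p stayed under 0.05 in all 20 refits (0.00224 to 0.0370, limma), but the call was lost where an absolute log2 fold change of at least 1 was also asked. The call in 6DKO alone was lost in 9 of 21, among them a fit of only the groups compared, leaving out any 6DKO IL-33 library, and leaving out 6DKO PBS replicate 2 or 3 or WT IL-33 replicate 2, with adjusted p of 0.0107 to 0.145 over the alternatives (limma). Between the genotypes *Nfil3* differed by 0.04 under IL-33 and -0.46 under PBS, and neither passed the threshold.

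*Bhlhe40*, a basic helix-loop-helix repressor that supports cytokine production, was the most abundant member and among the steadiest. It was 1512, 1299.5 and 1264 FPKM in WT PBS, 1666, 1060.2 and 1264 in 6DKO PBS, 1271, 1498 and 1552 in WT IL-33 and 1574, 1659 and 1513 in 6DKO IL-33 libraries. The groups overlapped between the treatments within each genotype and between the genotypes within each treatment, and the averaged log2 fold change was 0.18 (95% interval -0.06 to 0.42). Its longest exon overlap with an opposite-strand gene, *0610040F04Rik*, was 118 bases, and that gene was at most 5.06 FPKM.

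NFIL3 and BHLHE40 also act in the circadian clock, and 14 of 15 clock and PAR bZIP genes passed the filter. Averaged over the genotypes 2 of them rose and 1 fell, against 8.82% of all genes tested called in either direction. The median log2 fold change of the clock and PAR bZIP genes was 0.02. *Nr1d1*, which encodes the clock repressor REV-ERBα, was 27.4, 27.4 and 14.4 FPKM in WT PBS and 48.6, 5.95 and 20.4 in 6DKO PBS libraries, and 3.74, 3.61 and 2.29 in WT IL-33 and 4.23, 2.81 and 6.01 in 6DKO IL-33 libraries. It fell by 2.19 on the log2 scale (SE 0.45, adjusted p = 0.00992, limma), and the call held in the 20 alternatives, with log2 fold changes between -2.56 and -1.85. *Hlf*, a PAR bZIP activator that binds the same DNA elements as NFIL3, rose from 26.1, 42.9 and 32.7 FPKM in WT PBS and 12.3, 26.3 and 26.4 in 6DKO PBS to 51.0, 61.6 and 76.5 in WT IL-33 and 38.0, 47.4 and 50.6 in 6DKO IL-33 libraries. Its log2 fold change was 0.99 (SE 0.24, adjusted p = 0.0217, limma), lost in 4 of 20 alternatives and below a log2 fold change of 1, and that of *Dbp* (1.06, at most 2.57 FPKM) was lost in 11 of 19. The log2 fold change of *Dbp* was 3.11 with a pseudocount of 0.1 and 0.12 after quantile normalization (adjusted p = 0.863, limma; 0.0167 to 0.863 over the alternatives). The time of day at which cells were collected is not given, and its part in these values was not tested.

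*Prdm1*, which encodes the repressor BLIMP-1, was 14.9, 16.5 and 8.49 FPKM in WT PBS, 15.0, 12.3 and 9.60 in 6DKO PBS, 9.33, 10.3 and 12.7 in WT IL-33 and 13.7, 10.9 and 17.2 in 6DKO IL-33 libraries. The groups overlapped in every comparison, and the averaged log2 fold change was -0.04 (95% interval -0.62 to 0.54). Its direction turned with array weights and when any of 5 single libraries was left out. *Maf*, which encodes the activator c-MAF, was 10.5, 14.6 and 9.39 FPKM in WT PBS and 17.9, 15.2 and 15.5 in WT IL-33 libraries, without overlap. In 6DKO libraries it was 9.89, 4.51 and 16.1 FPKM under PBS and 16.2, 12.47 and 18.2 under IL-33, and PBS replicate 3 lay among the IL-33 libraries. The averaged log2 fold change was 0.59 (SE 0.30, adjusted p = 0.280, limma), which did not pass, and the exact permutation p was 0.025 in a family of 60 such tests. Macrophages also express *Maf*: their 12 markers, led by *Chil3*, summed to between 0.390 and 17.1 FPKM in WT PBS, 5.74 and 189 in 6DKO PBS, 0.815 and 6.55 in WT IL-33 and 10.5 and 428 in 6DKO IL-33 libraries. Of these markers, *Lyz2* reached 112 FPKM, and *Csf1r* was at most 0.0718 FPKM. The part of macrophages in the *Maf* values was not tested.

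Of the other MAF, BACH and PRDM genes and *Bcl6*, 12 of 21 passed the filter, with a median log2 fold change of -0.33 averaged over the genotypes. Of these, 0 rose and 1 fell, against 8.82% of all genes tested called in either direction. *Bach2*, a repressor that restrains effector differentiation and opposes *Prdm1* in lymphocytes, was 2.71, 5.89 and 3.13 FPKM in WT PBS and 3.42, 1.72 and 3.00 in 6DKO PBS libraries. With IL-33 it was 1.48, 0.362 and 0.841 FPKM in WT and 1.08, 0.427 and 0.698 in 6DKO libraries, each below all PBS libraries. It fell by 1.22 on the log2 scale (SE 0.33, adjusted p = 0.0384, limma), a call that was lost in 10 of 20 alternatives (adjusted p up to 0.107), with log2 fold changes between -1.94 and -1.09. *Mafa* and *Nrl*, of the same family as *Maf*, were listed at 0 in all libraries.

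*Ahr*, a ligand-activated receptor, had uneven values in the PBS groups. It was 3.41, 14.0 and 8.86 FPKM in WT PBS, 0.0824, 14.3 and 13.3 in 6DKO PBS, 7.84, 12.97 and 9.15 in WT IL-33 and 9.05, 8.93 and 9.23 in 6DKO IL-33 libraries. The 6DKO PBS libraries thus held both the lowest and the highest value of the 12, and the groups overlapped in every comparison. With IL-33 the log2 fold change was 0.70 in 6DKO and 0.51 averaged over the genotypes (SE 0.62, adjusted p = 0.677, limma). The mean of the 6DKO libraries was lower with IL-33 (9.07 FPKM) than with PBS (9.22), so the sign depended on the log scale. Without 6DKO PBS replicate 1, the library with 0.0824 FPKM, these were -0.55 and -0.12, and the difference between the genotypes under PBS, where the 6DKO mean was 1.05 times the WT mean, turned from -0.49 to 0.77.

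Of 12 genes of AHR partners, chaperones and targets, 7 passed the filter, with a median log2 fold change near 0 averaged over the genotypes. Of these, 0 rose and 1 fell, against 8.82% of all genes tested called in either direction. *Tiparp*, a target gene whose product represses AHR, was 187, 105 and 150 FPKM in WT PBS and 175, 118 and 99.9 in 6DKO PBS libraries. With IL-33 it was 25.6, 43.5 and 43.1 FPKM in WT and 38.3, 43.4 and 45.2 in 6DKO libraries, below all PBS libraries. It fell by 1.95 on the log2 scale in WT (SE 0.30, adjusted p = 0.00342, limma) and by 1.57 in 6DKO (SE 0.30, adjusted p = 0.0166, limma), and the averaged call held in the 20 alternatives. *Ahrr* and *Cyp1a2* were listed at 0 in all libraries, and *Cyp1a1*, a classical AHR target, reached 1.98 FPKM in 1 library and was listed at 0 in the others. *Tiparp* also answers to other signals, and which applied was not tested.

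*Ikzf2*, which encodes Helios, was 7.93, 7.37 and 5.73 FPKM in WT PBS and 3.08, 4.24 and 6.95 in WT IL-33 libraries, with overlap. In 6DKO libraries it was 23.9, 7.19 and 10.8 FPKM under PBS and 4.59, 4.74 and 4.77 under IL-33, without overlap. The averaged log2 fold change was -0.88 (SE 0.35, adjusted p = 0.151, limma), which did not pass the threshold (0.0659 to 0.309 over the alternatives), and the exact permutation p was 0.01. *Ikzf3*, which encodes Aiolos, was 102, 102 and 69.1 FPKM in WT PBS and 59.0, 38.5 and 77.5 in 6DKO PBS libraries, and 59.9, 68.5 and 100.5 in WT IL-33 and 60.5, 79.0 and 72.8 in 6DKO IL-33 libraries. Under PBS the 6DKO libraries differed from WT by -0.67 on the log2 scale (SE 0.30, adjusted p = 0.370, limma), with overlap through WT replicate 3 and 6DKO replicate 3. The averaged log2 fold change of *Ikzf3* with IL-33 was 0.03 and turned when any of 4 single libraries was left out.

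*Runx3*, the RUNX factor of cytotoxic and innate lymphocytes, was 14.7, 37.9 and 14.1 FPKM in WT PBS and 12.96, 12.97 and 11.3 in 6DKO PBS libraries. Under IL-33 it was 26.8, 28.2 and 30.2 FPKM in WT and 24.8, 20.02 and 15.2 in 6DKO libraries. All 6DKO libraries thus lay below all WT libraries of the same treatment, but neither difference passed the test: the log2 fold change was -0.65 under PBS (SE 0.39, adjusted p = 0.519, limma) and -0.51 under IL-33 (SE 0.39, adjusted p = 1, limma). Without WT PBS replicate 2, the library at 37.9 FPKM, the log2 fold change under PBS was -0.20, and with each library left out in turn it was between -0.88 and -0.20. Exact permutation tests gave p = 0.1 in each, the smallest that 3 libraries against 3 allow. With IL-33 the averaged log2 fold change was 0.56 (SE 0.27, adjusted p = 0.254, limma), and without WT PBS replicate 2 it was 0.78 (adjusted p = 0.0371, limma; 0.0371 to 0.442 over the alternatives). NK cells also express *Runx3*: the 6DKO PBS replicate 2 with the NK cell and ILC1 sum of 834 FPKM, led by *Gzma*, had 12.97 FPKM of *Runx3*, beside 12.96 and 11.3 in the others of its group. The part of such cells in the *Runx3* values was not tested. *Runx1*, the family member of hematopoietic progenitors, was between 9.95 and 21.7 FPKM in PBS and between 11.2 and 14.8 in IL-33 libraries, with overlap in every comparison and an averaged log2 fold change of -0.14 (95% interval -0.70 to 0.42).

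Of the other Ikaros and RUNX genes and their cofactors, 7 of 8 passed the filter, with a median log2 fold change of 0.28 averaged over the genotypes. Of these, 1 rose and 1 fell, against 8.82% of all genes tested called in either direction. *Runx2*, best known from bone and expressed in lymphocytes, was 5.23, 5.53 and 3.93 FPKM in WT PBS, 6.02, 1.37 and 6.01 in 6DKO PBS, 8.48, 10.8 and 9.30 in WT IL-33 and 14.3, 12.9 and 13.6 in 6DKO IL-33 libraries. It rose by 1.21 on the log2 scale (SE 0.34, adjusted p = 0.0459, limma), and the call was lost in 11 of 20 alternatives, with log2 fold changes of 0.95 to 1.401. *Runx1t1*, which encodes the corepressor ETO, fell by 1.69 (SE 0.42, adjusted p = 0.0270, limma), lost in 5 of 20 with log2 fold changes between -2.43 and -1.46, from between 1.47 and 16.5 FPKM under PBS to at most 2.50 under IL-33. *Cbfb*, which encodes the common partner of RUNX proteins, was between 41.7 and 98.6 FPKM. No gene of the 5 lists was called between the genotypes or for the interaction.

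**Figure D3:**
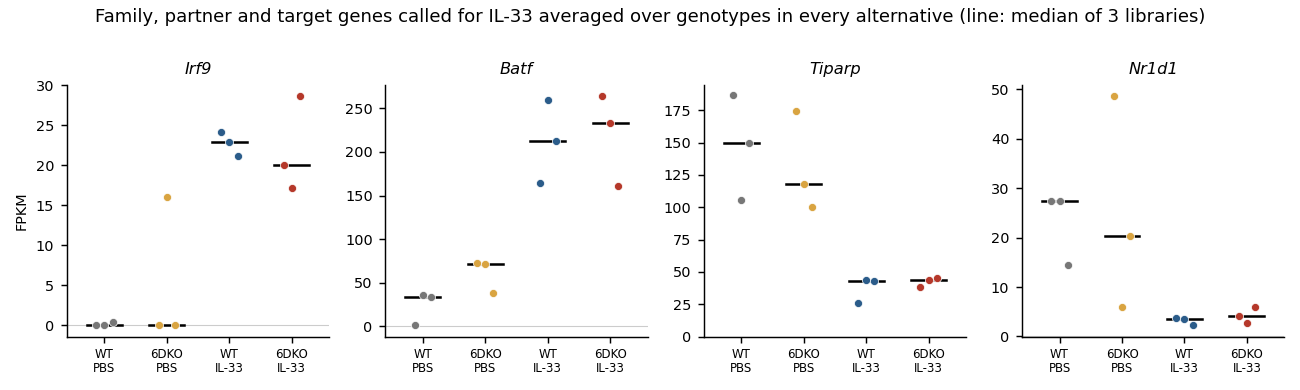
FPKM (vertical axes, linear) of the 4 family, partner and target genes whose call for IL-33 averaged over the genotypes held in all 20 alternatives; points are libraries, lines the median of 3. *Tiparp* lies at 25.6 to 45.2 FPKM with IL-33 and at 99.9 or more with PBS, and *Irf9* is listed at or near 0 in 5 of 6 PBS libraries.

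Across the 12 libraries, the genes whose pattern was most like that of each member were sought among 7412 genes averaging 5 FPKM or more, by the root mean square difference of centred log2(FPKM + 1). The nearest to *Nfil3* were *Hmgb2* (0.20) and *Rgs1* (0.20), against a spread of 0.51 of *Nfil3* itself. For *Irf4*, whose own spread was 1.53, they were *Lrig1* (0.61) and the interferon-induced *Isg15* (0.61). *Maf* (own spread 0.49) was nearest to *Glrx2* (0.19) and *Pdcd5* (0.23), and *Runx3* (own spread 0.53) to *Sec61g* (0.25) and *Naca* (0.27). For *Bhlhe40*, whose own spread was only 0.19, these were *Serp1* (0.11) and *Saraf* (0.11). For *Ikzf2* (own spread 0.65) they were *Cdk13* (0.29) and *Arhgap15* (0.32), and for *Ahr* (own spread 1.02) *Erap1* (0.29) and *Slc35d1* (0.29). *Prdm1* (*Skil*, *Cggbp1*), *Ikzf3* (*Mapkapk2*, *Atp5d*) and *Runx1* (*Sqstm1*, *Tapbp*) had neighbours at 0.16 to 0.24, against own spreads of 0.30, 0.38 and 0.28. A gene that did not move at all would differ by the member's own spread, so small distances of steady members say little about a shared pattern.

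In GENCODE vM21 (GRCm38, the build called mm10), the 10 protein-coding genes lie on 9 chromosomes, and *Irf4* (chr13:30749226-30766976, plus strand) and *Nfil3* (chr13:52967209-52981073, minus strand) share chromosome 13. *Maf*, *Ahr*, *Ikzf2* and *Runx1* overlap exons of opposite-strand genes that have no row in the files, so reads of these could not be separated if strand was not used. RefSeq promoters (250 bases before to 50 after the start, GRCm38.p6) matched 5 members with 7 promoters, namely *Prdm1*, *Irf4*, *Nfil3*, *Runx1* and *Runx3*. They were searched on both strands for TGANTCA (AP-1, found in 7.81% of 32851 promoters), CACGTG (E-box, 7.15%), GCGTG (AHR response element core, 32.4%), TGTGGT (RUNX, 16.8%), GGANTTNCC (a kappaB-like motif, 3.95%) and GAAANNGAA (an interferon response motif, 8.56%). The promoters of the 2 members that rose with IL-33, *Irf4* (chr13:30748983-30749282, plus strand) and *Nfil3* (chr13:52980990-52981289, minus strand), are shown with matches in capitals, of which *Irf4* has 1 (GCGTG, on the other strand) and *Nfil3* none.
Irf4: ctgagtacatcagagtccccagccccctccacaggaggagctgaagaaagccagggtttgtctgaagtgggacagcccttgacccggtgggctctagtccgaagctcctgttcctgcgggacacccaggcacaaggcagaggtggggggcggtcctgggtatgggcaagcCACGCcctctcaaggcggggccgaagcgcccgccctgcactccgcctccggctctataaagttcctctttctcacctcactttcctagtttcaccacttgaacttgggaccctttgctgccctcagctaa
Nfil3: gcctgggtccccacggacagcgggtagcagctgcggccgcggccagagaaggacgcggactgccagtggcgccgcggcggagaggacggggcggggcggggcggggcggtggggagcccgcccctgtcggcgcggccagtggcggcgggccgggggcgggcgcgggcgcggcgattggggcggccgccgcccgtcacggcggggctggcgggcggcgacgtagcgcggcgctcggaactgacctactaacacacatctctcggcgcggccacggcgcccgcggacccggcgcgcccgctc

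The upstream promoters of *Runx1* (chr16:92826025-92826324, minus strand) and *Runx3* (chr4:135120395-135120694, plus strand) are shown because each holds 2 matches to the RUNX motif, in capitals as ACCACA, a count of 2 or more that 1.81% of all promoters reach. *Runx1* also has 1 E-box in capitals. Their downstream promoters held no RUNX match, and that of *Runx1* held 1 GCGTG match. The promoter of *Prdm1*, not shown, held 1 AP-1 match and 2 GCGTG matches. A match describes letters and not binding.
Runx1: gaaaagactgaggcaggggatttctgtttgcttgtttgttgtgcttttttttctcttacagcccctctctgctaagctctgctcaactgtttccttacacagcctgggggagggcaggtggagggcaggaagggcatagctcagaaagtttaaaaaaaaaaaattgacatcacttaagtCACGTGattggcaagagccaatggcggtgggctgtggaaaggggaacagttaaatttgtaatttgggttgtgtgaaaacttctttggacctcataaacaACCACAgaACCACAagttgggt
Runx3: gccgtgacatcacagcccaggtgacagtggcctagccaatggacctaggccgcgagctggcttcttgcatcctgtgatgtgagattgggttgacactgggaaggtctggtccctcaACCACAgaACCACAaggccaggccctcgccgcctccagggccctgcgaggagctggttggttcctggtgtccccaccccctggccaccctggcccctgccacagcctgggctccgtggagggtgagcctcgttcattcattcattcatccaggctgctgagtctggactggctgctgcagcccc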

How the data were processed

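The authors deposited FPKM values, 1 per gene and library, for 24346 gene symbols. The methods of the study name TopHat, Bowtie2, SAMtools and Cuffnorm with the mm10 genome, whereas the submitters' processing notes name TopHat2 2.1.1 and Cuffdiff 2.2.1; the annotation is not given in the sources used here. Samples were grouped by their labels. Fits ran in limma 3.58.1 under R 4.3.3, and other values were computed in Python 3.11.15 (pandas 2.3.3, numpy 2.4.6, scipy 1.17.1). The limma fit (trended eBayes, 4 group means, 8 residual degrees of freedom, Benjamini-Hochberg adjustment) used log2(FPKM + 1) of 11395 genes, which averaged 0.5 FPKM or more or were members; this scale understates changes of low genes. Single members were also tested by two-sided exact permutation of libraries, 60 tests in all. The genes named are the 10 members, up to 6 genes per list with an adjusted p under 0.05 in the averaged, genotype or interaction contrasts, the 2 nearest neighbours of each member among genes averaging 5 FPKM or more, and marker genes, except for a called list gene that is not reported here; other genes were named after their values were seen. Members and lists were chosen with earlier results of these data known. Scripts were tested on simulated data, in which the median of the simulated log2 fold changes was recovered. Of 200 genes given a log2 change of 1, 2 or 4 between the WT groups, 6.5%, 41.5% and 84% were called. A gene that was not called may thus have changed. With unequal spread between groups, too many unchanged genes were called. Alternatives were another pseudocount, 2 other filters, quantile and median ratio scaling, no trend, array weights, a replicate block, only the groups compared, a minimum fold change and leaving out each library. No pair of libraries was identical.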

Additional observations from a re-analysis of the deposited data

How the results depend on the processing

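Of 1240 refits of the 60 member fold changes (10 members in 6 comparisons), 1181 kept their direction and their side of the threshold, 10 lost and 5 gained a call, and 44 turned direction, none of these called. The averaged adjusted p of *Irf4* and *Nfil3* stayed under 0.05 in all refits. With a minimum absolute log2 fold change of 1, members called averaged over the genotypes went from 2 to 1, by the loss of *Nfil3*, and genes called between the genotypes under IL-33 from 1 to 0. With a pseudocount of 0.1, 2 genes were called between the genotypes under IL-33 and 5 for the interaction (2 without the change). Between the genotypes under PBS, where 66 genes were called, no filter left 33, quantile normalization 36, array weights 1 and a fit of only the groups compared 1. Between the genotypes under IL-33, quantile normalization and only the groups compared gave 0 and array weights 55. Quantile normalization turned *Runx1* in 6DKO to 0.00576 and *Bhlhe40* between the genotypes under PBS to 0.0232. Array weights turned *Runx1* in 6DKO to 0.0312, *Prdm1* averaged to 0.0394, and *Ahr* between the genotypes under PBS to 0.0316 and in the interaction to -0.18. Without the trend, members called in 6DKO were 1 and genes called for the interaction 7. With only the groups compared, members called were 1 in WT and 0 in 6DKO. The cause of these changes was not tested.

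With the replicate number as a replicate block, members called in 6DKO were 1, because *Nfil3* was lost (adjusted p = 0.0713, limma), genes called under PBS between the genotypes 15 and for the interaction 1; no other member call changed. The numbers gave no sign of pairing: the deviations of 18 same-numbered pairs correlated at -0.05 to 0.04 and those of 36 other pairs at -0.07 to 0.05. A pairing that touches few genes would not show in such correlations over all genes tested.

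Leaving out each of the 12 libraries in turn, genes called were 202 to 691 in WT, 122 to 476 in 6DKO, 660 to 1244 averaged, 0 to 3 between the genotypes under IL-33, 20 to 213 under PBS and 0 to 25 for the interaction. Members called were 2 to 3 averaged, 0 to 1 in WT, 1 to 2 in 6DKO and 0 to 1 between the genotypes under PBS. Log2 fold changes that turned direction ranged as follows. With IL-33 in WT, *Ahr* was at -0.17 to 0.71. In 6DKO, *Ahr* was at -0.55 to 1.36 and *Runx1* at -0.31 to 0.22. Averaged, *Prdm1* was at -0.17 to 0.0473, *Ikzf3* at -0.10 to 0.14 and *Ahr* at -0.12 to 0.84. Between the genotypes under PBS, *Prdm1* was at -0.35 to 0.10, *Bhlhe40* at -0.23 to 0.10, *Runx1* at -0.38 to 0.14, *Ahr* at -1.14 to 0.77 and *Maf* at -0.67 to 0.15. Under IL-33, *Maf* was at -0.17 to 0.0815, *Irf4* at -0.23 to 0.32, *Nfil3* at -0.11 to 0.20, *Ikzf2* at -0.18 to 0.30, *Ahr* at -0.24 to 0.0878, *Runx1* at -0.0515 to 0.13 and *Ikzf3* at -0.24 to 0.13. In the interaction, *Ahr* was at -0.87 to 1.04, *Runx3* at -0.31 to 0.37, *Maf* at -0.21 to 0.61 and *Runx1* at -0.0853 to 0.44.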
